A study of Mus musculus with 24 samples.

Results

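Nociceptor genes were followed across RNA sequencing libraries of mouse lumbar spinal cord. The 9 genes, Scn10a, Scn11a, Trpv1, Trpa1, Mrgprd, P2rx3, Prdm12, Avil and Isl2, were chosen by symbol, and all 9 were found among the 55418 gene rows of the count table. The study crossed genotype, treatment and sex in C57BL/6J mice aged 8 to 10 weeks at the start, with 3 mice in each of 8 groups. The groups were Chrna7-cKO mice given paclitaxel, Chrna7-cKO mice given vehicle, WT mice given paclitaxel and WT mice given vehicle, each in females and in males. Chrna7-cKO mice lack Chrna7, the gene of the alpha7 nicotinic receptor subunit for acetylcholine, in myeloid cells only. The sources used here do not give the Cre line that drives this deletion, and WT mice are described by no other allele. Paclitaxel, a taxane that stabilises microtubules and causes painful neuropathy in patients, was injected 4 times at 1 mg/kg, every other day. The vehicle was a mixture of Kolliphor, ethanol and water. RNA was taken from segments L4 to L6 on day 7.

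Nociceptors are sensory neurons that respond to damaging heat, chemicals and force. Their cell bodies lie in the dorsal root ganglia outside the cord, and their central axons run through the dorsal roots to end in the dorsal horn. Most of their messenger RNA is held in the ganglion, so whole cord tissue is known to carry little of it, whereas Schwann cells wrap the axons of the roots. In bulk tissue such as this, fewer cells of a type and less RNA per cell cannot be told apart.

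The libraries held 88812295 to 112158154 counts (median 94343662), so 1 count was worth about 0.0106 CPM (the count scaled to the library total) and 3 counts, taken as the detection floor, 0.0318 CPM in the median cord. One library, WT female paclitaxel replicate 3, stood apart from its label of spinal cord. In it, all 8 genes of an astrocyte list and all 8 of an oligodendrocyte list lay below every other library, as did 5 of 7 satellite glia genes, most of which astrocytes share, while 30 of 32 other nociceptor genes, 12 of 12 Schwann and root genes and 11 of 11 skeletal muscle genes lay above every other library. The share of all genes above or below every other library was not counted, so such counts only describe the listed genes. It is called the ganglion-like library here, and the other 23 libraries are called cords. The targeted gene, Chrna7, averaged 12.6 ± 1.63 CPM in Chrna7-cKO cords (SD, n = 12) and 13.6 ± 1.84 CPM in WT cords (n = 11), with overlapping ranges. Because neurons transcribe Chrna7 too, whole cord counts do not check the deletion in myeloid cells.

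The genes lie on 6 chromosomes of the GRCm38 build, mostly apart from one another. Scn10a (chromosome 9, 119608456 to 119719322) and Scn11a (chromosome 9, 119753759 to 119825456), both on the minus strand, are neighbours with a gap of 34436 bases and 0 annotated genes between them. Isl2 lies on the same chromosome, at 55538672 to 55546180. Prdm12 (31640037 to 31655795) and P2rx3 (84998583 to 85037462) are on chromosome 2. Trpv1 (chromosome 11, 73234292 to 73261242), Trpa1 (chromosome 1, 14872648 to 14918862), Mrgprd (chromosome 7, 145314835 to 145324086) and Avil (chromosome 10, 127000709 to 127020994) stand alone. Exons of 3 of the genes share bases with a gene on the opposite strand: Prdm12 shares 200 bases with Gm13425, Avil 165 bases with Tsfm and P2rx3 51 bases with Ssrp1. Counting did not use strand and left out reads of several genes, so reads on the shared bases were counted for neither gene. These bases are 8.09% of the exon length of Prdm12, 4.86% of that of Avil and 1.83% of that of P2rx3. The values of these 3 genes are uncertain to that extent.

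Upstream sequence was looked at because the 9 genes were all high in the same library. RefSeq (GRCm38.p6) gave the 250 bases before the start for 7 of the 9 genes, and not for Trpa1 or P2rx3. RUNX1 is a transcription factor that specifies nonpeptidergic nociceptors, and TGTGGT is the core of the RUNX motif. Searched on both strands, this core occurred in 2 of the 7 windows, those of Avil and Trpv1, against 4614 of all 32851 windows of this length (14.05%). TAATTA, a core of many homeodomain motifs that reads the same on both strands, occurred in 0 of the 7 windows and in 4.84% of all windows. The windows of 4 genes are shown, 5′ to 3′ on the strand of the gene and with any RUNX core in capitals, for the 2 genes with the core and for 2 without it. They are chr10:127000459-127000708 (plus) for Avil, chr11:73233899-73234148 (plus) for Trpv1, chr7:145314585-145314834 (plus) for Mrgprd and chr9:119825457-119825706 (minus) for Scn11a.
Avil: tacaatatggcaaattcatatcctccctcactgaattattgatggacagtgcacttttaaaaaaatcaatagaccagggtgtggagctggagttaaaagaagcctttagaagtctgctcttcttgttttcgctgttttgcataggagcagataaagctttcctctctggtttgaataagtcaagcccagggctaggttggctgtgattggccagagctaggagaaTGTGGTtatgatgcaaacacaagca
Trpv1: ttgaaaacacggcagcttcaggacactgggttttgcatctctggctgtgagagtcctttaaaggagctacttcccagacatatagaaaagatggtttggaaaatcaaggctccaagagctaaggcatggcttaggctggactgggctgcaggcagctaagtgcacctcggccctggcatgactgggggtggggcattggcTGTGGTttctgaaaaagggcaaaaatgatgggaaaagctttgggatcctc
Mrgprd: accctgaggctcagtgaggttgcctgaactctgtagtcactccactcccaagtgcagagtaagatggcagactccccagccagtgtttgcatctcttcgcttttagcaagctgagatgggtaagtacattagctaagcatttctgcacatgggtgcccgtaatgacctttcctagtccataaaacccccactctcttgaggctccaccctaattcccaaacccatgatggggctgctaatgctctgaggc
Scn11a: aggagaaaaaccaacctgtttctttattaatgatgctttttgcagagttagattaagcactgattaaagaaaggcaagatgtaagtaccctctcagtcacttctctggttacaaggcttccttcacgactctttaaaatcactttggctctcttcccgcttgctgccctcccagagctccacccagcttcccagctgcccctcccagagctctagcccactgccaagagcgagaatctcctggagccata
The core of Avil begins 25 bases before its RefSeq start and that of Trpv1 50 bases before its own, which lies upstream of the Trpv1 start that the count table gives. These are matches of letters and not shown to be bound.

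The ganglion-like library is 1 library, so its levels are given as values without a test. Among the ion channels of electrical signalling, Scn10a, a tetrodotoxin-resistant sodium channel that carries much of the nociceptor action potential, reached 772 CPM there, against 0 to 0.728 CPM (median 0.0217) in the 23 cords. Scn11a, a persistent sodium channel that sets nociceptor excitability, reached 384 CPM, against 0.0450 to 0.416 CPM (median 0.171) in cords. Both channels were therefore abundant in 1 library, with no overlap. In cords the median of Scn10a lay under the floor, and Scn11a lay above it in every cord.

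The sensory receptors followed the same order. Trpv1, the channel opened by heat and capsaicin, reached 176 CPM in the ganglion-like library, against 0.0731 to 0.409 CPM (median 0.233) in cords. Trpa1, the channel opened by mustard oil and other irritants, reached 71.4 CPM, against 0.459 to 1.30 CPM (median 0.826). P2rx3, an ion channel opened by ATP, reached 212 CPM, against 1.98 to 3.20 CPM (median 2.35). All 3 receptors were counted in every cord, and P2rx3 never fell under 1.98 CPM in a cord. Mrgprd, a receptor coupled to G proteins that marks nonpeptidergic nociceptors of the skin, reached 139 CPM in the ganglion-like library and was at 0 in 21 of 23 cords. The 2 cords with any Mrgprd had 8 counts (Chrna7-cKO male vehicle replicate 2) and 6 counts (Chrna7-cKO male paclitaxel replicate 1). Both mates of a read pair were taken as counted separately, so low counts can stand for fewer RNA fragments.

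The regulators and the cytoskeletal gene differed in what the cords held. Prdm12, a transcriptional regulator needed for nociceptors to form, reached 100.3 CPM in the ganglion-like library, against 0.0113 to 0.235 CPM (median 0.0629) in cords. Avil, which encodes advillin, an actin-binding protein of sensory neurons, reached 593 CPM, against 0.450 to 1.19 CPM (median 0.738). Isl2, a LIM homeodomain factor of both sensory and motor neurons, reached 113 CPM, against 1.42 to 3.66 CPM (median 2.04). Gm13425, on the strand opposite Prdm12, was at 90.6 CPM in the ganglion-like library and at most 0.0884 CPM in cords, whereas Tsfm (15.3 CPM, cord median 15.6) and Ssrp1 (73.8 CPM, cord median 81.7) hardly differed there.

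**Figure D1:**
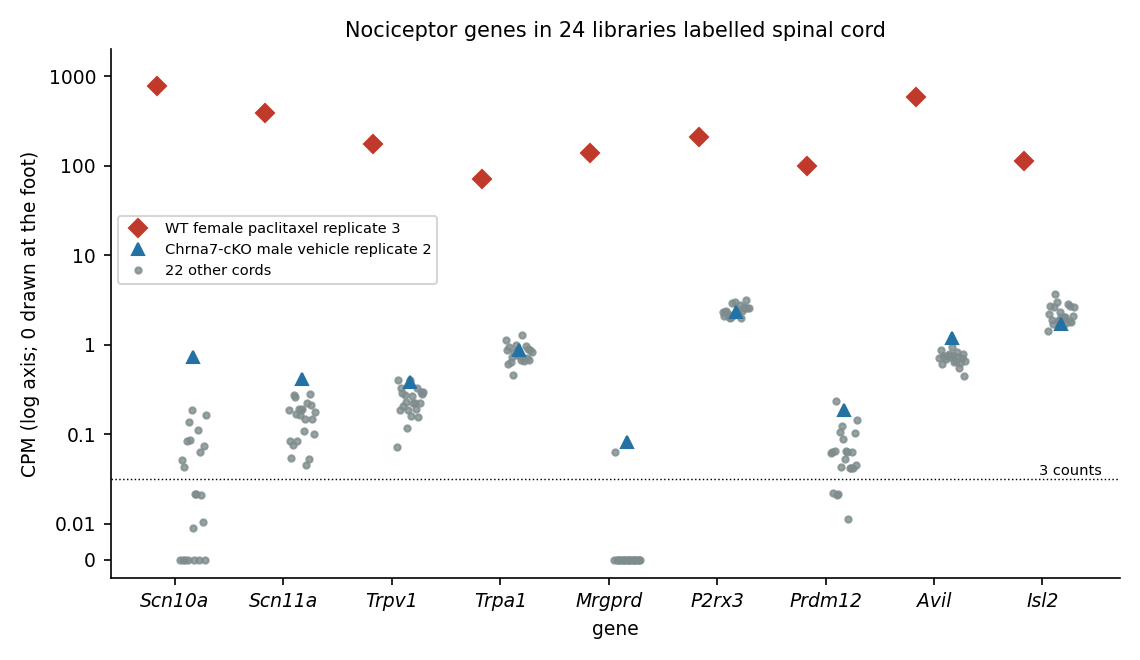
Level in CPM on a log axis of the 9 nociceptor genes in the ganglion-like library (diamonds), Chrna7-cKO male vehicle replicate 2 (triangles) and the 22 other cords (circles), with the level of 3 counts as a dotted line and 0 drawn at the foot. The diamonds run between 71.4 and 772 CPM, and no cord passes 3.66 CPM.

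Per length of exon, the order of the genes was not the same in the ganglion-like library and in cords. In RPKM (CPM per kilobase of exon), the ganglion-like library held most of Avil (174 RPKM), then Scn10a (96.9), P2rx3 (75.9), Scn11a (64.8), Isl2 (51.5), Trpv1 (47.9), Mrgprd (44.2), Prdm12 (40.6) and Trpa1 (16.7). In cords the highest median was that of Isl2, at 0.929 RPKM, followed by P2rx3 at 0.844 RPKM, and the ranges of this pair over cords overlapped. Avil and Trpa1 followed with medians of 0.217 and 0.194 RPKM, again with overlapping ranges, and no cord had as much Avil per length (at most 0.349 RPKM) as the lowest P2rx3 value (0.708 RPKM). Trpv1 had a median of 0.0633 RPKM, and its highest cord (0.111 RPKM) just passed the lowest value of Trpa1 (0.108 RPKM). Scn11a at 0.0288, Prdm12 at 0.0255 and Scn10a at 0.0027 RPKM overlapped with one another and with Trpv1. Scn10a thus followed Avil alone in the ganglion-like library, but in cords it came ahead of Mrgprd alone, whose median was 0.

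The share of the ganglion level that was left in cords differed widely between the genes. With the counts of all 23 cords pooled, the level was 0.00464% of that in the ganglion-like library for Mrgprd (14 counts in all), 0.0103% for Scn10a and 0.0439% for Scn11a. Prdm12 stood at 0.0749%, Avil at 0.125% and Trpv1 at 0.142%. Trpa1 and P2rx3 both stood at 1.15% and Isl2 at 1.96%. The genes of the lowest shares were thus the sodium channels and Mrgprd, and those of the highest were Trpa1, P2rx3 and Isl2. Without the cord Chrna7-cKO male vehicle replicate 2, the shares were 0.00208% for Mrgprd, 0.00637% for Scn10a and 0.0409% for Scn11a.

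**Figure D2:**
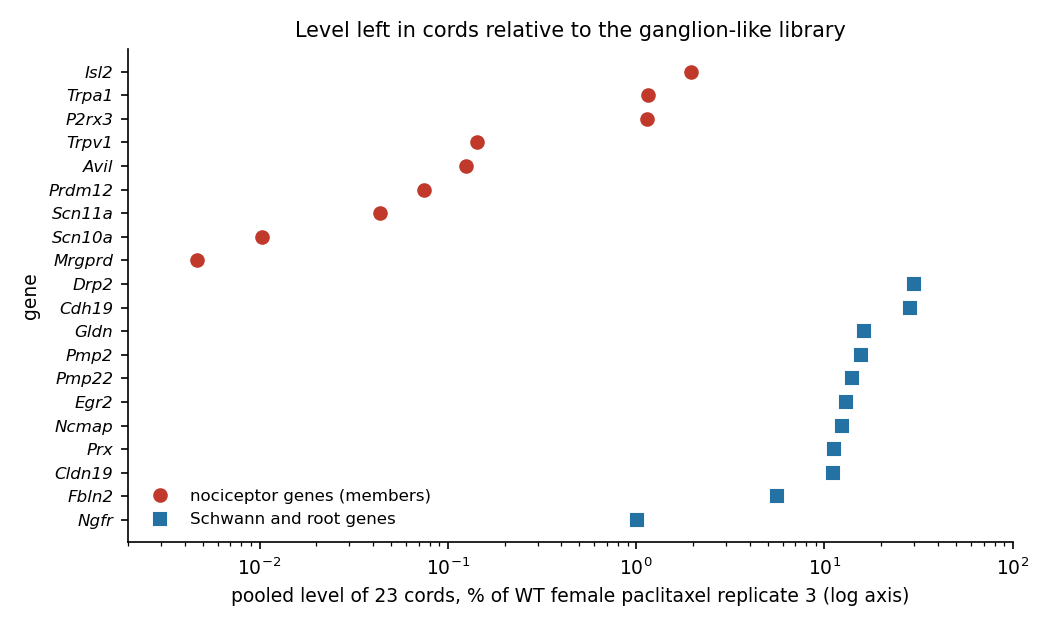
Pooled level of the 23 cords as a percentage of the level in the ganglion-like library, on a log axis, for the 9 nociceptor genes (circles, above) and 11 Schwann and root genes (squares, below). The nociceptor genes lie between 0.00464 and 1.96%, and 10 of these 11 Schwann and root genes lie above all of them, Ngfr at 1.02% being the exception. Without Chrna7-cKO male vehicle replicate 2 the lowest shares are 0.00208% (Mrgprd) and 0.00637% (Scn10a).

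Genes of the tissue around axons were measured beside them, because cord dissections can keep stretches of root. Over the list of 12 Schwann and root genes, the pooled level of the cords was 1.02% (Ngfr) to 29.7% (Drp2) of the ganglion level, and 0 of the 12 were at 0 in the median cord. Transcripts of these genes, some of which cord cells also make, were therefore present in cords at a larger share of the ganglion level than the 9 nociceptor genes, except for Ngfr. Whether the residual counts of the 9 genes come from cord cells or from roots was not tested. Isl2 is also known in motor neurons of the cord. Mnx1, which marks motor neurons, was at 0.116 CPM in the ganglion-like library and at 2.30 to 4.37 CPM in cords.

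Other genes of nociceptors gave a range of shares that enclosed 7 of the 9. Of the 32 other nociceptor genes, 30 were higher in the ganglion-like library than in every cord. The exceptions were Trpm3 (104 CPM against 186 to 241 CPM) and Sst, the gene of somatostatin (10.6 CPM against 43.5 to 71.3 CPM), both also known in cord neurons. Calca, the gene of the peptide CGRP, was at 1546 CPM against 24.5 to 62.7 CPM in cords. Mrgprx1, an itch receptor, lay at 18.6 CPM against at most 0.0416 CPM. Pooled cord levels ran between 0.0144% (Tmem233) and 528% (Sst) of the ganglion level.

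Ranked by the ratio of the ganglion-like library to the cord median (or to 3 counts where the median was lower) among 4809 genes with at least 50 CPM in that library, Scn10a had rank 1, at least 24276-fold higher. Mrgprd had rank 3 (at least 4369-fold higher), Scn11a rank 5 (2248-fold), Prdm12 rank 7 (1594-fold), Avil rank 9 (803-fold) and Trpv1 rank 10 (757-fold). P2rx3 had rank 32 (89.8-fold), Trpa1 rank 33 (86.5-fold) and Isl2 rank 38 (55.4-fold). The 5 genes outside the 9 with the largest ratios included Tmem233 (rank 2, 476 CPM), Gm13425 (rank 4, 90.6 CPM) and Tmem45b (rank 6, 139 CPM). The others were Pirt (rank 8, 1094 CPM) and Trappc3l (rank 11, 129 CPM). Tmem233 and Tmem45b are also among the 32 other nociceptor genes, and Gm13425 is the gene that shares exon bases with Prdm12. Pirt encodes a membrane protein that modulates TRPV1. Of the 9 genes, 6 share the first 11 places with these 5.

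One of the 23 cords, Chrna7-cKO male vehicle replicate 2, singled out after its values were seen, held the most of several of these genes. It was the highest cord for 4 of the 9 (Scn10a, Scn11a, Mrgprd and Avil), and no other cord was highest for more than 1. Scn10a had 70 counts there (0.728 CPM), against 0 to 18 counts (at most 0.187 CPM) in the 22 other cords. Scn11a had 40 counts (0.416 CPM), against at most 0.284 CPM, and Avil 114 counts (1.19 CPM), against at most 0.936 CPM. It was also the highest cord for 3 of the 5 genes of largest ratio outside the 9 (Tmem233, Tmem45b and Trappc3l).

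The surplus of this cord over the median of the other 22 was set against the ganglion-like library. For the 4 genes that singled this cord out, a surplus was given by that choice. It was 0.0915% of the ganglion level for Scn10a, 0.0644% for Scn11a, 0.0599% for Mrgprd and 0.0761% for Avil. For Trpv1 it was 0.0884%, for Trpa1 0.121% and for Prdm12 0.124%. For P2rx3 (-0.0141%) and Isl2 (-0.304%) the cord lay below the median of the others. Among the 5 genes of largest ratio outside the 9, the surplus was 0.0451% (Gm13425) to 0.203% (Trappc3l). For Trpv1, Trpa1 and Prdm12 the surplus lay inside the range of the other 22 cords.

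The Schwann and root genes did not peak in this cord. Their summed level was 622 CPM, with 10 of the 22 other cords below it. Nor did the sum of the 32 other nociceptor genes, at 653 CPM with 4 of the 22 other cords below it (median of the 23 cords 665 CPM). Over the 23 cords these sums ran from 464 to 899 CPM and from 630 to 708 CPM. In the ganglion-like library they were 5013 and 7308 CPM. A surplus of the relative size above would be lost in that spread, so the sums cannot show it. Of the 32, Tmem233, Tmem45b, Mrgprx1 and Mrgprb4 were highest in this cord and the others were not. The labels give no preparation batch or lane, and the source of the surplus was not tested.

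**Figure D3:**
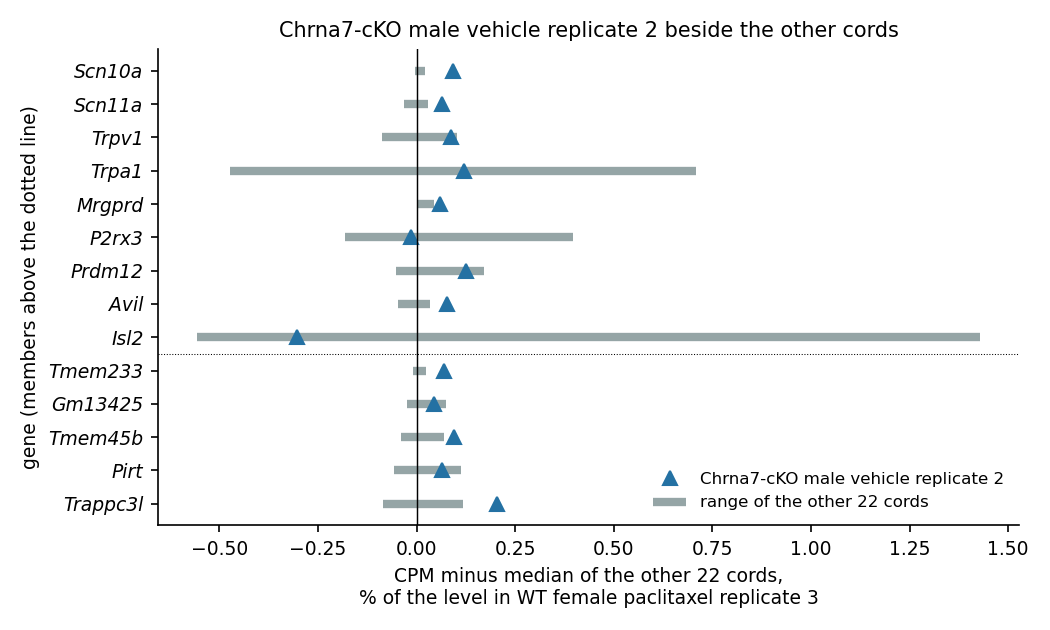
Surplus of Chrna7-cKO male vehicle replicate 2 (triangles) over the median of the other 22 cords, and the range of those 22 cords (bars), each as a percentage of the CPM in the ganglion-like library, for the 9 nociceptor genes and the 5 other genes of largest ratio. The triangle passes the bar for Scn10a, Scn11a, Mrgprd, Avil, Tmem233, Tmem45b and Trappc3l.

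The comparisons ask whether paclitaxel, or loss of Chrna7 from myeloid cells, goes with a change in the residual level of these genes in cord. They were fitted on the 23 cords with edgeR's quasi-likelihood test over 25372 genes, with Benjamini-Hochberg adjustment over all of them and a gene called under 0.05. Of the 9 genes, 8 passed the filter on low counts, and Mrgprd did not. For paclitaxel minus vehicle over both genotypes and sexes, 0 of the 8 were called, as were 5 of all genes (0.0197%). For paclitaxel minus vehicle within Chrna7-cKO the counts were 0 of 8 and 6 of all genes (0.0236%), and within WT 0 of 8 and 0 of all genes (0%). For Chrna7-cKO minus WT they were 0 of 8 and 3 of all genes (0.0118%), and for the difference between the genotypes in the paclitaxel response 0 of 8 and 0 of all genes (0%).

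The count of 0 also came from DESeq2 and from limma voom in all 5 comparisons. At an unadjusted edgeR p under 0.05, 1 of 8 passed for paclitaxel minus vehicle (Prdm12), where 10.2% of all genes did. Within WT, 2 passed (Isl2 and Prdm12), where 7.97% of all genes did, and for the difference between genotypes 1 passed (Isl2), where 8.41% did. None passed for paclitaxel within Chrna7-cKO (11.3% of all genes) or for Chrna7-cKO minus WT (3.36%). For none of the 9 genes did the ranges of paclitaxel and vehicle cords, of Chrna7-cKO and WT cords, or of males and females lie apart. The share of all genes whose ranges overlap was not counted, so this overlap is not particular to the 9.

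Scn10a had the largest estimates for paclitaxel and for Chrna7-cKO, on a median of 2 counts per cord. In 6 Chrna7-cKO paclitaxel cords it lay at 0 to 0.187 CPM (median 0.0369), and in 6 Chrna7-cKO vehicle cords at 0 to 0.728 CPM (median 0.0905). In the 5 WT paclitaxel cords it was at 0.113, 0.0106, 0, 0 and 0.00892 CPM, and in 6 WT vehicle cords at 0 to 0.0855 CPM (median 0.0424). The 4 groups overlapped, and each held at least 1 cord at 0. On the log2 scale, paclitaxel minus vehicle gave -1.48 with an SE of 0.79 (adjusted p = 0.541, edgeR). Chrna7-cKO minus WT gave 1.52 with an SE of 0.83 (adjusted p = 0.9997, edgeR). These estimates average 4 combinations, of which WT male paclitaxel held 1 count in 3 cords, so they depend on the prior count of the fit.

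The estimates for Scn10a leaned on single cords. Chrna7-cKO cords averaged 0.120 ± 0.203 CPM (SD, n = 12) with it and 0.0648 ± 0.0692 CPM (n = 11) without it, beside 0.0342 ± 0.0415 CPM in WT cords (n = 11). Without it the log2 fold change of Chrna7-cKO minus WT was 1.06, and that of paclitaxel minus vehicle -1.02. Leaving out WT female vehicle replicate 3, with 8 counts, gave 2.64 for Chrna7-cKO minus WT and -0.36 for paclitaxel minus vehicle, and leaving out WT female paclitaxel replicate 1, with 10 counts, gave -2.09 for the second of these. The neighbouring Scn11a gave log2 fold changes of -0.11 (SE 0.31) for paclitaxel and 0.31 (SE 0.31) for Chrna7-cKO. It averaged 0.185 ± 0.101 CPM in Chrna7-cKO cords and 0.149 ± 0.0751 CPM in WT cords. Mrgprd, which did not pass the filter on low counts and was not called with no filter, had 14 counts over 12 Chrna7-cKO cords, all in 2 male cords, and 0 counts in 11 WT cords.

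Prdm12 was the gene with the smallest p in the paclitaxel comparison, on few counts. Paclitaxel cords averaged 0.0515 ± 0.0341 CPM (SD, n = 11), with 1 to 12 counts, and vehicle cords 0.0958 ± 0.0629 CPM (n = 12), with 4 to 22 counts. The log2 fold change was -0.96, with an SE of 0.43 (adjusted p = 0.437, edgeR). In the 5 WT paclitaxel cords it had 1, 4, 2, 2 and 10 counts, beside 4 to 22 counts in 6 WT vehicle cords, which gave -1.33 with an SE of 0.65 on the log2 scale (adjusted p = 0.626, edgeR). The highest of all cords, WT female vehicle replicate 2 with 22 counts, is a vehicle cord. Without it the paclitaxel estimate over both genotypes was -0.69.

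Isl2 had enough counts in every cord (136 to 343) for a closer estimate. In the 5 WT paclitaxel cords it was at 2.04, 2.71, 2.73, 3.66 and 2.30 CPM, and in 6 WT vehicle cords at 1.42 to 2.85 CPM (median 1.83). All 5 paclitaxel cords lay above 5 of the 6 vehicle cords, and the groups overlapped through WT male vehicle replicate 2, at 2.85 CPM. WT paclitaxel cords averaged 2.69 ± 0.618 CPM (SD, n = 5) and WT vehicle cords 1.93 ± 0.484 CPM (n = 6). On the log2 scale the difference was 0.45 with an SE of 0.16 (adjusted p = 0.528, edgeR). In Chrna7-cKO mice the means were 2.13 ± 0.302 CPM under paclitaxel and 2.18 ± 0.535 CPM under vehicle (n = 6 each). The response in Chrna7-cKO minus that in WT was -0.47 in log2 units, with an SE of 0.22 (adjusted p = 0.571, edgeR). Mnx1 was at 3.44 ± 0.600 CPM in WT paclitaxel cords and 2.75 ± 0.388 CPM in WT vehicle cords. In Chrna7-cKO cords Mnx1 was at 2.87 ± 0.185 CPM under paclitaxel and 3.14 ± 0.657 CPM under vehicle. Mnx1 does not stand for the whole list of 12 motor neuron genes, which also holds Isl2. For paclitaxel within WT, 8 of the 12 were above 0 and 4 below, with a median log2 fold change of 0.04. Of all tested genes 51.9% were above 0 in that comparison. The part that the content of motor neurons has in the Isl2 values was not tested.

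**Figure D4:**
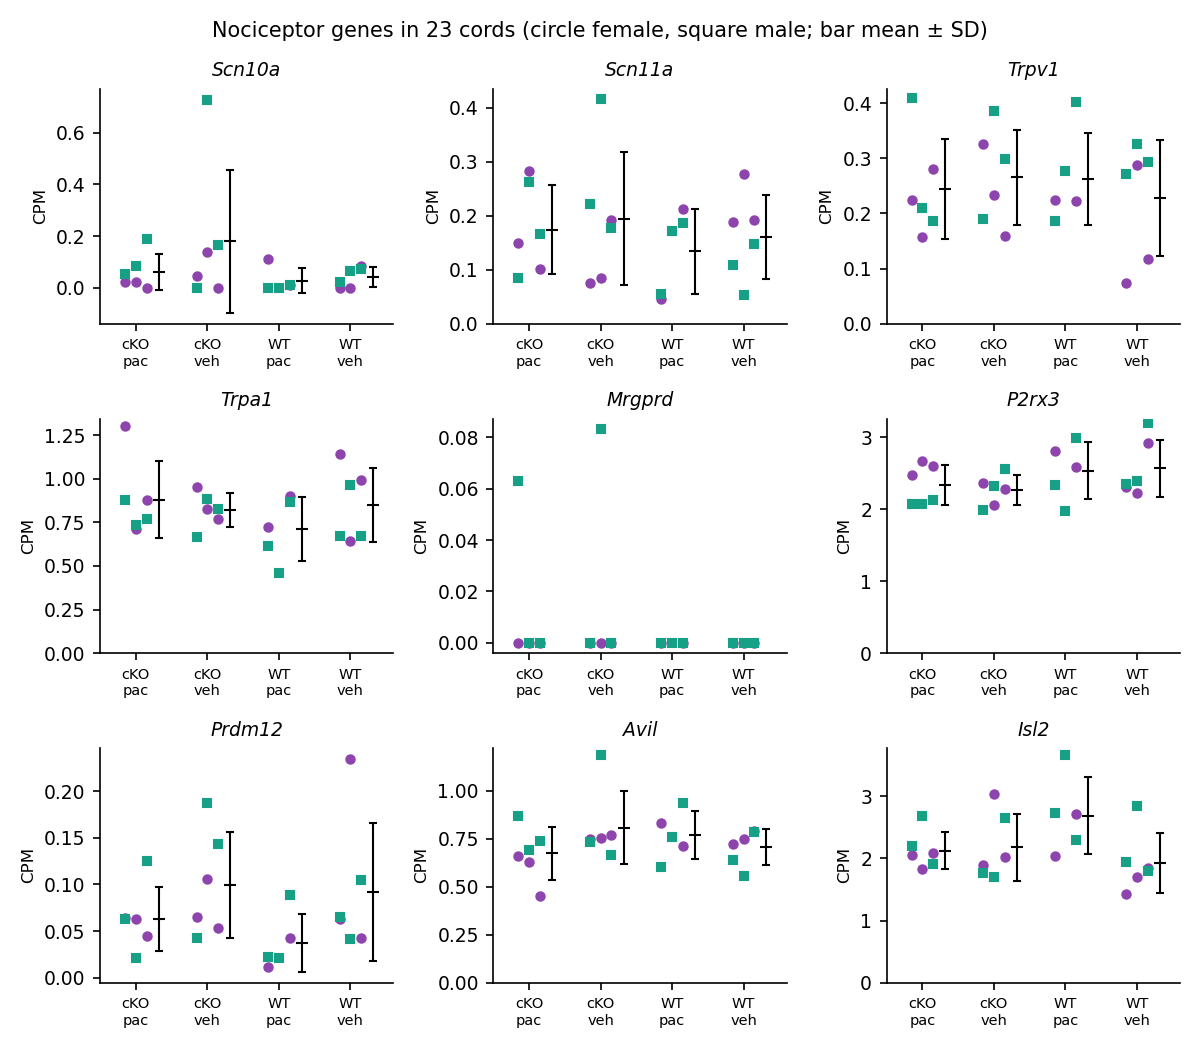
CPM of each nociceptor gene in the 23 cords by genotype (cKO for Chrna7-cKO) and treatment (pac for paclitaxel, veh for vehicle), with females as circles, males as squares and the mean ± SD as a bar (no bar for Mrgprd, at 0 in 21 cords). The groups overlap for every gene, and Scn10a has 1 cord at 0.728 CPM among Chrna7-cKO vehicle cords.

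Among the receptors, P2rx3 and Trpa1, which had more counts, bounded the size of a difference more tightly than Trpv1. P2rx3 averaged 2.43 ± 0.338 CPM in paclitaxel cords and 2.42 ± 0.341 CPM in vehicle cords, a log2 fold change of 0.02 (SE 0.08). Chrna7-cKO minus WT gave -0.16 (SE 0.08) for P2rx3, with 2.30 ± 0.238 CPM in Chrna7-cKO cords and 2.55 ± 0.377 CPM in WT cords. Trpa1 averaged 0.804 ± 0.212 CPM in paclitaxel cords and 0.834 ± 0.158 CPM in vehicle cords, a log2 fold change of -0.07 (SE 0.13). For Chrna7-cKO minus WT it gave 0.11 (SE 0.13). Trpv1 gave 0.05 (SE 0.23) for paclitaxel and 0.10 (SE 0.23) for Chrna7-cKO, with 0.253 ± 0.0836 CPM in paclitaxel cords and 0.247 ± 0.0936 CPM in vehicle cords.

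Avil gave -0.08 (SE 0.12) for paclitaxel and -0.01 (SE 0.12) for Chrna7-cKO, with 0.717 ± 0.135 CPM in paclitaxel cords and 0.758 ± 0.151 CPM in vehicle cords. Isl2 gave 0.21 (SE 0.11) for paclitaxel over both genotypes and -0.06 (SE 0.11) for Chrna7-cKO. Prdm12 gave 0.46 (SE 0.43) for Chrna7-cKO. Over the 8 tested genes the median log2 fold change was -0.07 for paclitaxel, where that of all tested genes was 0.01, with 3 above 0 and 5 below. For Chrna7-cKO it was 0.11, where that of all tested genes was -0.001, with 5 above 0 and 3 below.

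**Figure D5:**
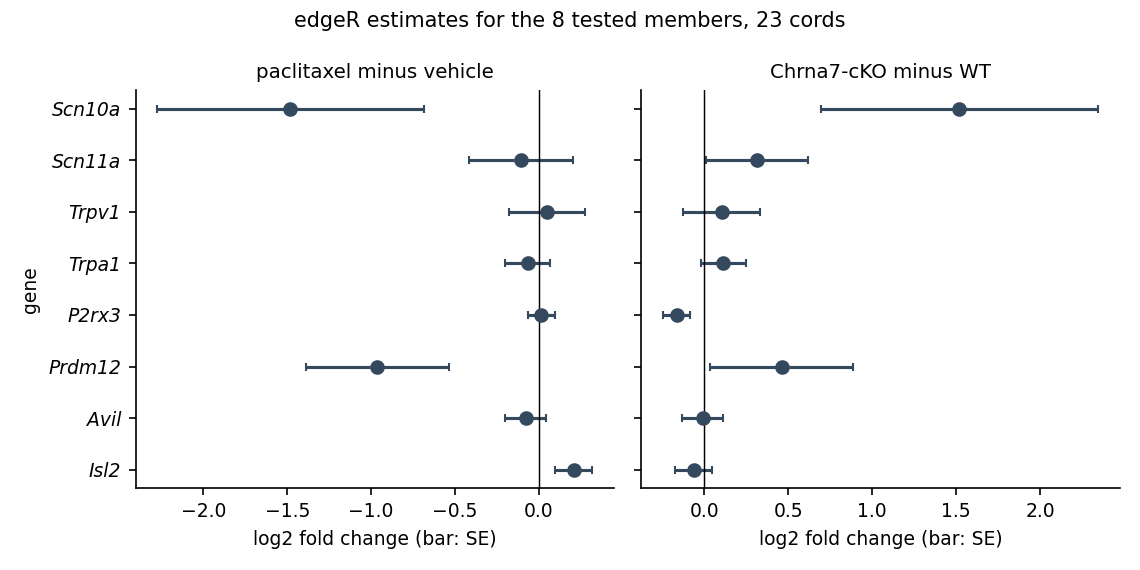
Log2 fold change with its SE from edgeR for the 8 tested nociceptor genes in the 23 cords, for paclitaxel minus vehicle (left) and Chrna7-cKO minus WT (right). The widest bars are those of Scn10a (SE 0.79 and 0.83), and no estimate passed the threshold after adjustment over 25372 genes.

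Of the 32 other nociceptor genes 29 were tested, and 0 were called in each of the 5 comparisons by edgeR. For paclitaxel 17 were above 0 and 12 below (median log2 fold change 0.02), with 1 at an unadjusted p under 0.05. For Chrna7-cKO 16 were above 0 and 13 below (median 0.04), also with 1. Of the Schwann and root genes 0 of 12 were called. For paclitaxel 10 of 12 were below 0 (median -0.08), where 52.9% of all tested genes were above 0. For Chrna7-cKO 11 of 12 were below 0 (median -0.12), where 49.5% of all tested genes were above 0. Genes of the same tissue can vary together, so these are not 12 separate observations. The 12 genes summed to 466 to 856 CPM in paclitaxel cords and 464 to 899 CPM in vehicle cords. In Chrna7-cKO cords they summed to 464 to 800 CPM, beside 466 to 899 CPM in WT cords. The summed level of the 9 genes was 6.20 to 7.78 CPM in paclitaxel cords and 5.62 to 7.91 CPM in vehicle cords. The part of root content in the group values of the 9 genes was not tested.

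With the ganglion-like library kept in its group, the 9 genes would be read differently. All 8 tested genes were then above 0 for paclitaxel minus vehicle (median log2 fold change 1.58) and below 0 for Chrna7-cKO minus WT (median -1.72). Still 0 of 8 were called by edgeR over 24 libraries in any of the 5 comparisons, beside 0 of all genes (0%) for paclitaxel minus vehicle and 2 (0.00809%) for Chrna7-cKO minus WT. At an unadjusted p under 0.05, 6 of 8 passed for paclitaxel minus vehicle (7.47% of all genes), 7 of 8 for paclitaxel within WT (10.8%), 0 of 8 within Chrna7-cKO (4.31%), 5 of 8 for Chrna7-cKO minus WT (3.58%) and 5 of 8 for the difference between genotypes (5.62%). Without this library, 5 of the 8 lay on the other side of 0 in each of the comparisons over all animals.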

How the data were processed

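Lumbar spinal cord RNA of 24 mice was sequenced, 3 per group of genotype, treatment and sex, and groups were taken from the labels. The authors deposited 1 table of whole-number read counts per gene symbol, without normalization. Per the submitters' processing notes, STAR aligned the reads and featureCounts 1.6.2 counted them, on GRCm38 exons of Ensembl release 96 without strand and without a read-pair option, per the file headers. Odd numbers made up 34.4 to 37.3% of values between 1 and 20, so both mates were taken as counted separately. Low counts, and the floor of 3 counts, can therefore stand for fewer fragments. Reads of several genes were not counted. In addition the deposited table holds the summed exon length of each gene (a unit of other), used for RPKM.

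CPM and RPKM were computed from library totals, without TMM factors. The fit used the counts of 23 libraries in edgeR 4.0.16 under R 4.3.3 (quasi-likelihood, robust, TMM factors, filterByExpr, means of the 8 groups). The test gives no SE, so each SE is the log2 fold change, without its sign, over the square root of the F statistic. It is approximate, because the fold change holds a prior count. WT female paclitaxel replicate 3 was left out, and a fit of all 24 was an alternative. Only the edgeR fit of paclitaxel minus vehicle was tried on simulated counts. These had the same spread setting for all genes and no mates counted separately, so they do not check the other steps. Ratios used 3 counts as a floor, which covers counting error only. Replicates differed by a chi-square of at least 8.34 per degree of freedom, so no library was a repeat. The labels do not say that replicate numbers pair mice: deviations of libraries with the same number had a median correlation of 0.0039. Alternatives were RLE factors, no filter, DESeq2 1.42.0, limma 3.58.1 voom, a replicate block and leaving out each library.

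The members and lists were chosen with earlier results of these data known. Named genes are the 9 members, listed genes with the smallest p or highest level, the 5 genes with the largest ratio, Chrna7 and genes whose exons overlap a member. Lists of myelinated sensory neurons, satellite glia, dorsal horn neurons and motor neurons were also counted: in the ganglion-like library 9 of 12, 1 of 7, 2 of 12 and 5 of 12 of their genes lay above every cord, and 2, 5, 9 and 7 lay below every cord.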

Additional observations from a re-analysis of the deposited data

Results flagged for a closer look

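In each group of 6 libraries of 1 genotype and treatment, the gap of the farthest library to its nearest neighbour was divided by the range of the group and set against Dixon's 95% critical value. Chance passes about 1 in 20 groups only where the values are normally distributed. CPM from few counts, as for Scn10a, Mrgprd and Prdm12, need not be, so the chance rate here is not known. Of the 35 groups looked at over 24 libraries 16 passed. The passes are therefore a description and are not set against 1 in 20. This count also holds 9 that come from a library whose high levels were known when the genes were chosen.

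Those 9 are the values of the ganglion-like library, WT female paclitaxel replicate 3, given as a description: Scn10a at 772 CPM, Scn11a at 384 CPM, Trpv1 at 176 CPM, Trpa1 at 71.4 CPM, Mrgprd at 139 CPM, P2rx3 at 212 CPM, Prdm12 at 100.3 CPM, Avil at 593 CPM and Isl2 at 113 CPM. The nearest of the other 5 libraries lay between 0 CPM (Mrgprd) and 3.66 CPM (Isl2).

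In Chrna7-cKO vehicle cords, male replicate 2 stood apart with Scn10a at 0.728 CPM (nearest 0.166 CPM), Mrgprd at 0.0832 CPM (nearest 0) and Avil at 1.19 CPM (nearest 0.767 CPM). In Chrna7-cKO paclitaxel cords, female replicate 1 stood apart with Trpa1 at 1.30 CPM (nearest 0.881 CPM), and male replicate 1 with Mrgprd at 0.0629 CPM (nearest 0). In WT vehicle cords, female replicate 2 stood apart with Prdm12 at 0.235 CPM (nearest 0.105 CPM), and male replicate 2 with Isl2 at 2.85 CPM (nearest 1.94 CPM).

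Both Mrgprd values of these cords pass because the other 5 libraries of the group are at 0, as any count above 0 would.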

How the results depend on the processing

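None of the 8 tested nociceptor genes, nor Mrgprd where it was tested (with no filter), was called in any comparison under any of the 29 settings other than the one reported. Of 551 recomputed fold changes 515 kept their direction. The smallest edgeR adjusted p of a member was 0.437 as reported, 0.118 over alternatives on 23 or 22 libraries (Isl2 within WT with no filter) and 0.453 on 24 libraries.

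With all 24 libraries the log2 fold change of paclitaxel minus vehicle turned to 1.55 for Scn10a, 2.41 for Scn11a, 1.18 for Trpa1, 1.62 for Prdm12 and 1.95 for Avil, and within WT to 3.83 for Prdm12. That of Chrna7-cKO minus WT turned to -1.51 for Scn10a, -2.20 for Scn11a, -1.93 for Trpv1, -1.14 for Trpa1 and -2.12 for Prdm12. The library added in this setting is the one with ganglion-like levels. When 1 library was left out in turn, signs also turned for paclitaxel minus vehicle in Scn11a (-0.48 to 0.064), Trpv1 (-0.065 to 0.24) and P2rx3 (-0.029 to 0.057), and for Chrna7-cKO minus WT in Trpv1 (-0.0070 to 0.29) and Avil (-0.084 to 0.033). These signs rest on estimates smaller than their SE.

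Counts of all genes called moved more. For paclitaxel minus vehicle they were 0 with 24 libraries, 338 with no filter, 158 with DESeq2, 9 with the replicate block and 2 to 62 with 1 library left out (62 without Chrna7-cKO male vehicle replicate 1, 2 without WT female paclitaxel replicate 1). Within Chrna7-cKO they were 0, 470 and 126 under the first 3 of these, and 0 to 332 with 1 library left out (332 without Chrna7-cKO male vehicle replicate 1, 0 without Chrna7-cKO male vehicle replicate 2). Within WT they were 254 with no filter, 4 with DESeq2 and 0 to 4 with 1 left out. For Chrna7-cKO minus WT they were 99 with no filter, 5 with DESeq2 and 3 to 5 with 1 left out. For the difference between genotypes they were 366 with no filter and 0 to 1 with 1 left out. The cause was not tested. The replicate block changed no call of a nociceptor gene. Depth limits Scn10a, Mrgprd and Prdm12, whose cord medians are 2, 0 and 6 counts.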
